A study of Mus musculus with 18 samples.

Results

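The genes described here are 10 genes of antigen presentation and the major histocompatibility complex (MHC), taken by name from 33641 gene symbols in the table. They are H2-K1, H2-D1, B2m, Tap1 and Nlrc5 of the class I pathway, and H2-Aa, H2-Ab1, H2-Eb1, Cd74 and Ciita of the class II pathway. The animals were 9 obese wild-type male mice of the inbred strain DBA/2J, and RNA of quadriceps and of white adipose tissue from each gave 18 libraries. The mice had eaten a high-fat diet for 12 weeks and stayed on it through 12 weeks of treatment. The labels give an age of about 20 weeks. As the spans of diet together are longer than that, it cannot be the age at sampling, and its time point is unclear. Of the mice, 3 received prednisone daily, 3 received it weekly, both at 1 mg/kg by intraperitoneal injection, and 3 received vehicle, which the labels describe as daily. Mice were sampled 24 hours after their final dose. Prednisone is a synthetic glucocorticoid, and no group is an untreated or lean control.

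MHC class I molecules show peptides from inside the cell to cytotoxic T cells and are made by almost every nucleated cell. MHC class II molecules show peptides from engulfed protein to helper T cells and are made mainly by macrophages, dendritic cells and B cells. Both sets are induced by interferon gamma, and both are switched on at their promoters by a related pair of co-activators, Nlrc5 for class I and Ciita for class II, which act on a shared series of promoter boxes bound by RFX and NF-Y. H2-K1 and H2-D1 encode class I heavy chains, B2m the light chain that pairs with them, and Tap1 a subunit of the transporter that carries peptides to them. H2-Aa and H2-Ab1 encode the chains of the class II molecule I-A, H2-Eb1 the beta chain of I-E, and Cd74 the invariant chain that guards the class II groove until peptide is loaded.

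A promoter window from RefSeq, 250 bases before to 50 after the start on GRCm38.p6, was used for 6 of the genes. Stretches of these are shown because they hold the promoter letters that the family shares, read on the strand of the gene and 5′ to 3′. Capitals mark the letters CTGATTGG, found in Y boxes that NF-Y binds, or their reverse complement. They also mark the shorter core GATTGG where only the core is present. In H2-K1 and H2-D1 they mark as well the letters GGGATTCC, found in kappa B sites. A marked CTGATTGG match need not be the Y box of that gene, and other sites are left unmarked. The match in H2-K1 begins at base 9 after the start.
H2-K1, chr17:34000302-34000487, minus strand: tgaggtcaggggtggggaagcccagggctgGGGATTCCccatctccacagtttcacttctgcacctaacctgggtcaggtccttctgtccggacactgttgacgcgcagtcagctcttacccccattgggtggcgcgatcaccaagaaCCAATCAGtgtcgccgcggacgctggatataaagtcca
H2-D1, chr17:35262894-35263078, plus strand: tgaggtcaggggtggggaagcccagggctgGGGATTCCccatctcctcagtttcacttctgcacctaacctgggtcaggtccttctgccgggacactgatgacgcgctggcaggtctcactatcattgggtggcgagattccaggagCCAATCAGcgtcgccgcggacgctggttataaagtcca
B2m, chr2:122147603-122147668, plus strand: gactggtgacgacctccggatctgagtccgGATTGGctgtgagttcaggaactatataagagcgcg
Tap1, chr17:34187306-34187371, plus strand: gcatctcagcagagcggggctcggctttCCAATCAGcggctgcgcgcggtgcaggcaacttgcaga
H2-Aa, chr17:34287837-34287904, minus strand: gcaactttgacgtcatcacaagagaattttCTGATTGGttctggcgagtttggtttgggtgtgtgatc
H2-Eb1, chr17:34305775-34305867, plus strand: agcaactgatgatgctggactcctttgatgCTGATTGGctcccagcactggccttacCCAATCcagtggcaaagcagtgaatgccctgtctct

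The letters CTGATTGG, searched on both strands, were in 5 of these 6 windows and in 4.1% of all 32851 promoter windows of the same 300-base length. The core GATTGG, which lies inside them, was in 6 of 6 and in 16.1% of all windows. GGGATTCC was in the H2-K1 and H2-D1 windows and in 1.06% of all windows. H2-Ab1, Nlrc5 and Ciita had no such window, and Cd74 was left out of the set. The counts therefore do not show whether the promoters of those genes hold the letters. The letters were chosen with the windows in view, and a match describes the sequence and not a bound site. Tap1 shares its upstream region with Psmb9, a proteasome subunit gene that is read the other way from chr17:34181987-34187764, so its window also belongs to Psmb9.

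In the mouse genome build GRCm38, 6 of the 10 lie on chromosome 17 inside the MHC. H2-K1 spans chr17:33996017-34000347, Tap1 chr17:34187553-34197225, H2-Ab1 chr17:34257689-34269419, H2-Aa chr17:34282744-34287823, H2-Eb1 chr17:34305867-34316674 and H2-D1 chr17:35262730-35267499. The others lie at chr2:122147686-122153083 for B2m, chr8:94434356-94527272 for Nlrc5, chr18:60803848-60812652 for Cd74 and chr16:10480059-10528418 for Ciita. The reference genome comes from C57BL/6J, which carries MHC haplotype b, and DBA/2J carries haplotype d. How far this mismatch moves the level of each MHC gene was not tested, and it is the same in all groups. Class I heavy chain genes also resemble each other closely, so the split of reads among H2-K1, H2-D1 and their relatives is uncertain.

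All 10 genes had far more RNA in adipose tissue than in muscle. Levels are in TPM, a transcript abundance scaled for length and to a fixed total in each library, summed over the transcripts of a gene. In vehicle mice B2m averaged 323 ± 5.47 TPM in muscle and 4656 ± 122 TPM in adipose tissue (SD, n = 3 each). H2-D1 averaged 145 ± 8.55 TPM in muscle and 1776.5 ± 16.6 TPM in adipose tissue, and H2-K1 68.6 ± 2.07 and 831 ± 12.7 TPM in muscle and adipose tissue. Cd74 averaged 105 ± 11.5 TPM in muscle and 1241 ± 92.7 TPM in adipose tissue. By mean TPM over all 9 libraries of a tissue, B2m ranked 318 and Cd74 ranked 812 among all genes in muscle, against 23 and 89 in adipose tissue.

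The 2 transactivators were the lowest of the 10 in each tissue. Ciita averaged 0.296 ± 0.131 TPM in vehicle muscle and 5.24 ± 0.182 TPM in vehicle adipose tissue, and Nlrc5 averaged 0.993 ± 0.136 TPM in muscle and 15.6 ± 1.43 TPM in adipose tissue. From high to low, vehicle muscle ran B2m, H2-D1, Cd74, H2-K1, H2-Aa, H2-Ab1, H2-Eb1, Tap1, Nlrc5 and Ciita. Vehicle adipose tissue had the same order except that H2-Eb1 stood above H2-Ab1. Neighbours whose vehicle libraries overlapped were H2-Aa with H2-Ab1 and H2-Ab1 with H2-Eb1 in muscle, and H2-K1 with H2-Aa in adipose tissue; the other neighbours did not overlap.

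**Figure D1:**
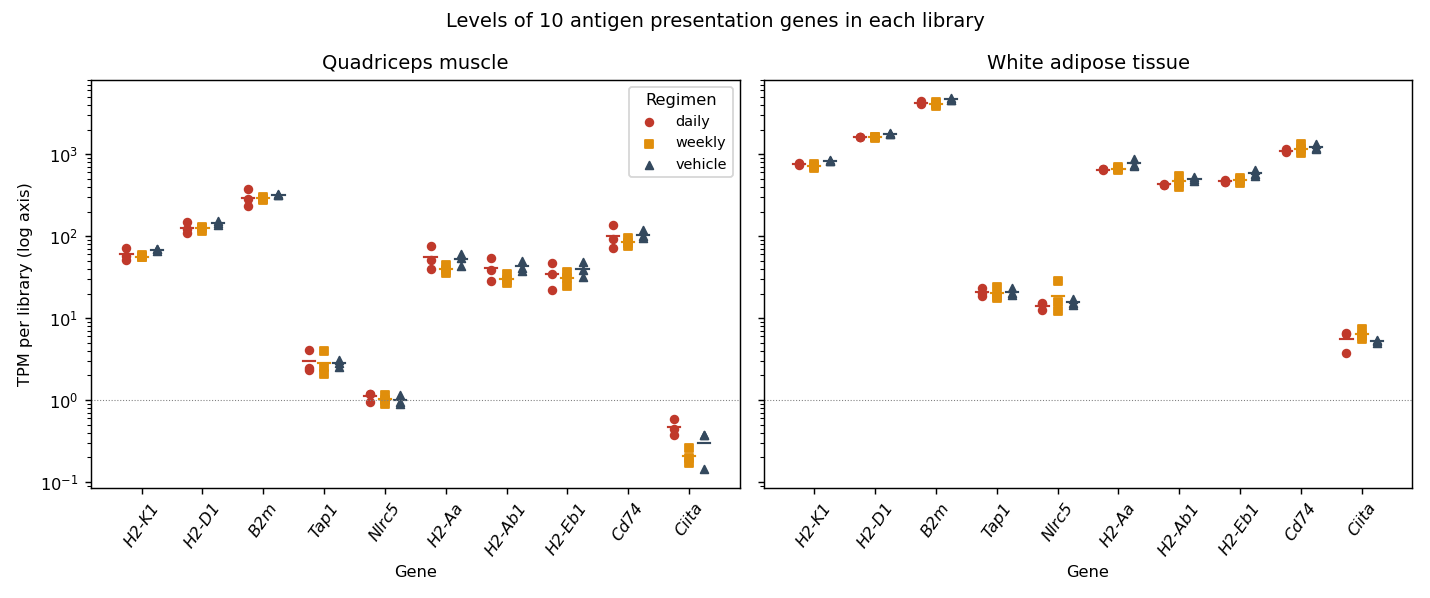
TPM on a log axis for each of the 10 genes in quadriceps muscle (left panel) and white adipose tissue (right panel), with 1 point per library, 3 per regimen, and a short line at the mean; the dotted line is 1 TPM. Each gene stands far higher in adipose tissue, B2m is highest and Ciita lowest in both, and the 3 regimens of a tissue lie close together.

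The tissue difference was tested with limma on log2(TPM + 1) of muscle minus that of adipose tissue in the same mouse, over the 11737 genes that reached 1 TPM in 3 or more libraries of both tissues. Ciita fell under this filter in muscle, and the other 9 genes were tested. All 9 were lower in muscle of vehicle mice at a Benjamini-Hochberg adjusted p of at most 8.1e-08, where 73.9% of all genes tested were called lower. The log2 difference was -3.87 (SE 0.21) for H2-Eb1, -3.85 (SE 0.18) for H2-Aa, -3.85 (SE 0.12) for B2m and -2.51 (SE 0.11) for Tap1, the ends of the range. The median over the 9 was -3.58, against -0.88 over all genes tested. The TPM of a library have a fixed total, of which skeletal muscle fibre markers alone took 99040 to 116678 TPM in muscle libraries. Mitochondrially encoded genes took 27.6% to 31.3% of the total in vehicle muscle and 12.9% to 13.5% in vehicle adipose tissue. With scaling factors of the TMM kind, which trim the genes that differ most, the 9 differences ran from -2.74 to -1.53, all called lower, and 34.2% of all genes were called lower, with a median of 0.11 over all genes. Of the genes called, 44.2% were lower with that scaling, against 85.0% as deposited.

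In bulk tissue, fewer cells of a type and less RNA per cell cannot be told apart. Among cell types that make class II, macrophage markers were also lower in muscle, and dendritic cell markers were mixed. B cell markers fell under the filter in muscle and were not tested. The summed level of 12 macrophage markers was 237 to 346 TPM in vehicle muscle and 2046 to 2752 TPM in vehicle adipose tissue. All 12 were called lower in muscle, against 73.9% of all genes tested. Of 5 dendritic cell markers tested, 3 were called lower, against the same 73.9%. The 1 called higher was Siglech, a receptor gene of plasmacytoid dendritic cells, at 0.30 (adjusted p = 0.0203). All 8 B cell, all 8 T cell and all 6 NK cell markers averaged under 1 TPM in muscle of each regimen, while 8 B cell markers summed to 13.6 to 18.8 TPM in vehicle adipose tissue. The part of these cells in the tissue difference was not tested. Each tissue carried the markers of its label: the fibre markers stood as given above in muscle, and adipocyte markers summed to 35183 to 38866 TPM in adipose tissue. Within every group the third library lay between the others for more genes than either of them did: its value was the middle one for 41.6% to 54.0% of the genes averaging at least 5 TPM.

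Limma called none of the 10 genes in adipose tissue and none of the 9 tested in muscle for either prednisone regimen against vehicle. In adipose tissue every daily library lay below every vehicle library for all 7 chain genes, and every weekly library for 5 of the 7. H2-Eb1 had 463, 483 and 460 TPM in adipose tissue of daily mice, against 641, 540 and 569 TPM in vehicle mice. H2-Aa had 659, 638 and 656 TPM in daily mice, against 864, 715 and 742 TPM in vehicle mice. Every daily library was below every vehicle library for both, and the daily libraries lay much closer to each other than the vehicle libraries did. H2-D1 had 1641, 1633 and 1637 TPM in daily mice, against 1766, 1767 and 1796 TPM in vehicle mice. B2m had 4403, 4156 and 4250 TPM in daily mice, against 4615, 4559 and 4792 TPM in vehicle mice. The class I chains thus also stood apart without overlap, by a smaller step.

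H2-K1, H2-Ab1 and Cd74 did not overlap either. H2-K1 had 763, 787 and 743 TPM in daily mice, against 825, 823 and 846 TPM in vehicle mice, and H2-Ab1 averaged 428 ± 10.6 and 500 ± 29.9 TPM in daily and vehicle mice. Cd74 averaged 1099 ± 41.4 TPM in daily mice and 1241 ± 92.7 TPM in vehicle mice. The 3 genes that overlapped were the transporter subunit and the transactivators. Tap1 averaged 20.8 ± 2.16 TPM in daily mice and 20.8 ± 1.96 TPM in vehicle mice, Nlrc5 14.2 ± 1.45 and 15.6 ± 1.43 TPM, and Ciita 5.56 ± 1.58 and 5.24 ± 0.182 TPM, in daily and vehicle mice in that order.

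For daily prednisone in adipose tissue, 7 of the 10 genes were lower without overlap, against 7.93% of the 14150 genes tested. Limma called 0 of the 10, against 0.00707% of all genes, and 4 of the 10 had an unadjusted p under 0.05, against 9.22% of all genes. The log2 fold change was -0.31 (SE 0.075, adjusted p = 0.314) for H2-Eb1, -0.24 (SE 0.072, adjusted p = 0.338) for H2-Aa and -0.12 (SE 0.047, adjusted p = 0.489) for H2-D1. The 95% interval was -0.48 to -0.14 for H2-Eb1 and -0.40 to -0.08 for H2-Aa. The median over the 10 was -0.13, against 0.0072 over all genes. With limma array weights, which give each library its own weight, 7 of the 10 were called lower, where 8.99% of all genes were called lower and 10.9% higher.

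Weekly prednisone in adipose tissue gave a like picture for the class I chains and for part of class II. H2-K1 had 686, 766 and 722 TPM in weekly mice, against 825, 823 and 846 TPM in vehicle mice. H2-D1 had 1581, 1612 and 1611 TPM in weekly mice, against 1766, 1767 and 1796 TPM in vehicle mice. H2-Eb1 had 512, 449 and 481 TPM in weekly mice, against 641, 540 and 569 TPM in vehicle mice. None of the 3 genes overlapped, and neither did B2m or H2-Aa, at 4143 ± 224 and 666 ± 21.2 TPM in weekly mice and 4656 ± 122 and 774 ± 79.4 TPM in vehicle mice.

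H2-Ab1 and Cd74 overlapped, and the first weekly mouse was high for both. H2-Ab1 had 548, 403 and 451 TPM in weekly mice, against 530, 470 and 499 TPM in vehicle mice. Cd74 had 1326, 1038 and 1159 TPM in weekly mice, against 1346, 1169 and 1208 TPM in vehicle mice. The same mouse held the highest Nlrc5, which had 28.1, 12.3 and 15.6 TPM in weekly mice, against 15.2, 17.2 and 14.5 TPM in vehicle mice. These Nlrc5 values sum coding and non-coding transcripts. Ciita went the other way from the chains, with 7.45, 5.56 and 6.10 TPM in weekly mice, against 5.31, 5.04 and 5.38 TPM in vehicle mice, and did not overlap.

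For weekly prednisone in adipose tissue, limma called 0 of the 10 genes, against 7.43% of all genes tested, and 5 had an unadjusted p under 0.05, against 30.8%. Without overlap, 5 of the 10 were lower, against 7.88% of all genes, and Ciita was higher, against 27.6%. The log2 fold change was -0.28 (SE 0.075, adjusted p = 0.0515) for H2-Eb1 and -0.20 (SE 0.056, adjusted p = 0.0576) for H2-K1. For H2-D1 it was -0.15 (adjusted p = 0.0721), for H2-Aa -0.21 (adjusted p = 0.0891) and for B2m -0.17 (adjusted p = 0.0968). H2-Ab1 stood at -0.11 (adjusted p = 0.485), Cd74 at -0.08 (adjusted p = 0.545), Nlrc5 at 0.16 (adjusted p = 0.664) and Ciita at 0.23 (adjusted p = 0.409). The median over the 10 was -0.13, against 0.13 over all genes tested. Both regimens were set against the same 3 vehicle libraries, so the likeness of the 2 pictures is no independent support.

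Several of these calls lay near the threshold and turned with the processing. With TMM-type scaling, which moved the median of all genes to 0.0039, H2-Eb1 (log2 fold change -0.42, adjusted p = 0.0365) and H2-D1 (-0.30, adjusted p = 0.0495) were called lower, where 4.65% of all genes were. Without weekly replicate 2, H2-K1 was called lower at -0.24 (adjusted p = 0.0438), where 1.62% of all genes were. In adipose tissue 3 libraries held more of a skeletal muscle transcript than the rest, with 176, 130 and 109 TPM of Ckm, muscle creatine kinase, in weekly replicates 2 and 3 and daily replicate 2, against 13.2 to 35.0 TPM in the other 6. Without these 3, which leaves 1 weekly library that is assumed to vary like the other groups, H2-K1 was called lower at -0.28 (adjusted p = 0.0392) and Nlrc5 higher at 0.81 (adjusted p = 0.0183), where 3.09% of all genes were called lower and 12% higher.

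**Figure D2:**
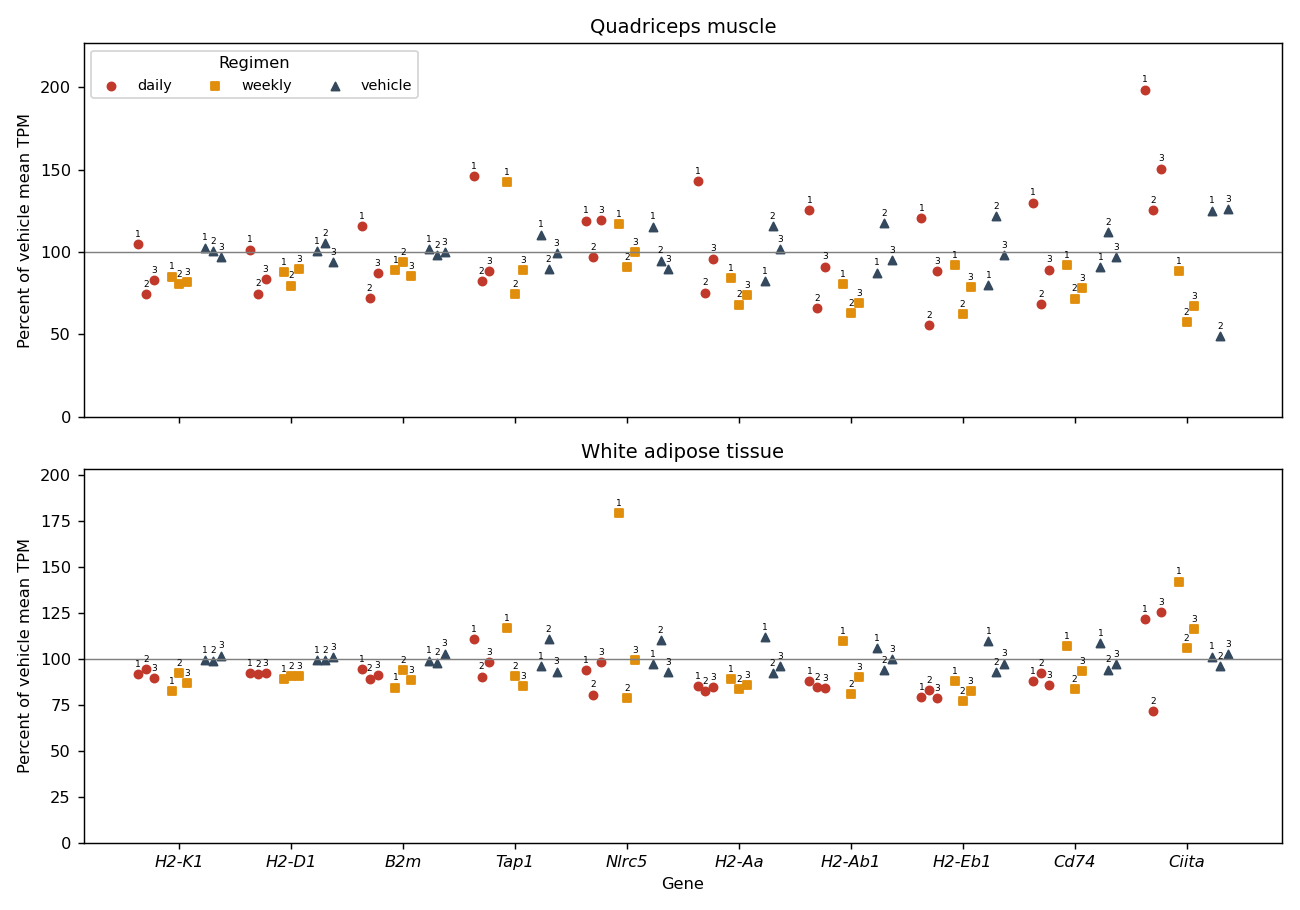
TPM of each library as a percent of the vehicle mean of its tissue, for the 10 genes in muscle (top) and adipose tissue (bottom), with daily, weekly and vehicle libraries from left to right and the replicate number above each point. In adipose tissue the class I chains and H2-Aa and H2-Eb1 of both prednisone groups lie below all 3 vehicle points, while Nlrc5 of weekly replicate 1 stands alone at 179%; in muscle the daily libraries are the most spread by SD, except for Tap1 (weekly), Nlrc5 and Ciita (vehicle).

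Macrophage markers of the same adipose libraries were at or above vehicle levels, and most dendritic cell markers tested had a log2 fold change that was not below 0. The 12 macrophage markers summed to 2653 to 2752 TPM in daily mice, 2587 to 3103 TPM in weekly mice and 2046 to 2752 TPM in vehicle mice. With daily prednisone 0 of 12 were called and 0 had a log2 fold change below 0, against 48.3% of all genes. In the weekly comparison 4 of 12 were called higher and 0 lower, against 5.72% and 1.72% of all genes, with Lyz2, a lysozyme gene of myeloid cells and the most abundant of them, at 1418 ± 60.9 TPM in weekly mice and 1074 ± 131 TPM in vehicle mice (adjusted p = 0.0249). The 10 dendritic cell markers summed to 119 to 126 TPM in daily mice, 113 to 147 TPM in weekly mice and 88.7 to 110 TPM in vehicle mice, of which Clec10a, a lectin gene, made up 79.0 to 83.3 TPM in daily, 67.7 to 86.4 TPM in weekly and 44.8 to 68.4 TPM in vehicle mice. Of the 8 tested, 2 were below 0 with daily prednisone (median 0.12), both of them lower without overlap, against 7.93% of all genes. They were Ccr7, a chemokine receptor gene, and Batf3, a transcription factor gene of cross-presenting dendritic cells (log2 fold change -0.36, adjusted p = 0.372). Another 2 were higher without overlap, among them Clec10a. With weekly prednisone 1 of the 8 was below 0 (median 0.27) and 1 was called higher, against 5.72% of all genes. B cell markers summed to 12.1 to 40.8 TPM in daily mice, 16.9 to 18.6 TPM in weekly mice and 13.6 to 18.8 TPM in vehicle mice. All 8 adipocyte markers had a log2 fold change below 0 with daily prednisone (median -0.10, 0 called) and 5 of 8 with weekly (median -0.013, 0 called). The TPM of a library have a fixed total, and the share of mitochondrially encoded genes in it was 15.3% to 16.9% for daily, 14.5% to 14.8% for weekly and 12.9% to 13.5% for vehicle adipose libraries, without overlap. The part of these cells and of this share in the levels of the 10 genes was not tested.

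In muscle the daily group was spread rather than shifted. H2-Aa had 75.7, 39.9 and 50.9 TPM in muscle of daily mice, against 43.7, 61.3 and 53.8 TPM in vehicle mice. Cd74 had 136, 71.8 and 93.7 TPM in daily mice, against 95.1, 117 and 102 TPM in vehicle mice. B2m had 374, 233 and 281 TPM in daily mice, against 328, 318 and 322 TPM in vehicle mice. The daily values lay on both sides of the vehicle values for all 3 genes.

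The spread ran between the same libraries for most genes. Replicate 1 was the highest of the daily libraries for 9 of the 10 genes and replicate 2 the lowest for all 10. H2-K1 had 71.9, 51.2 and 56.8 TPM in daily mice, against 70.5, 68.9 and 66.4 TPM in vehicle mice, and H2-D1 had 148, 109 and 121 TPM in daily mice, against 146, 153 and 136 TPM in vehicle mice. Limma called 0 of the 9 genes tested for daily prednisone in muscle, against 13.7% of the 12246 genes tested, and 0 had an unadjusted p under 0.05, against 30% of all genes. Log2 fold changes ran from -0.22 for H2-Eb1 (SE 0.26) to 0.08 for Nlrc5 (SE 0.11), with adjusted p of 0.197 to 0.941, and their 95% intervals reached from -0.81 to 0.50. The median over the 9 was -0.12, against -0.09 over all genes. The 8 adipocyte markers summed to 854 to 1918 TPM in muscle of daily mice and 1504 to 1936 TPM in vehicle mice, with 8 of 8 below 0, against 68.4% of all genes, a median of -0.49 and 1 called lower, and their part was not tested. Without daily replicate 1, H2-K1 (-0.34, adjusted p = 0.0137), H2-D1 (-0.33, adjusted p = 0.0267) and B2m (-0.33, adjusted p = 0.0289) were called lower, where 12% of all genes were.

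Muscle of weekly mice had lower means than vehicle for the chains of both classes, none of them called. H2-Ab1 had 34.6, 27.0 and 29.6 TPM in weekly mice, against 37.6, 50.5 and 40.9 TPM in vehicle mice. H2-K1 had 58.4, 55.1 and 56.1 TPM in weekly mice, against 70.5, 68.9 and 66.4 TPM in vehicle mice. H2-D1 and B2m, at 124 ± 7.69 and 289 ± 14.4 TPM in weekly mice and 145 ± 8.55 and 323 ± 5.47 TPM in vehicle mice, did not overlap either. H2-Aa, H2-Eb1 and Cd74 had lower means with overlap, at 39.9 ± 4.25, 30.6 ± 5.84 and 84.5 ± 10.8 TPM in weekly mice and 52.9 ± 8.82, 39.4 ± 8.28 and 105 ± 11.5 TPM in vehicle mice.

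For weekly prednisone in muscle, 4 of the 9 genes were lower without overlap, against 19.3% of all genes tested, and 8 of 9 had a log2 fold change below 0, against 70.5%. Limma called 0 of the 9, against 0.049% of all genes, and 2 had an unadjusted p under 0.05, against 15.4%. The log2 fold change was -0.48 (SE 0.21, adjusted p = 0.310) for H2-Ab1, -0.39 (SE 0.21, adjusted p = 0.404) for H2-Aa and -0.27 (SE 0.10, adjusted p = 0.268) for H2-K1. The median over the 9 was -0.27, against -0.07 over all genes. In the same comparison 11 of 12 macrophage markers, 4 of 5 tested dendritic cell markers and 8 of 8 adipocyte markers were below 0 as well, with medians of -0.16, -0.24 and -0.18 and 0 called, and their part in these levels was not tested. Tap1 averaged 2.87 ± 1.00 TPM in weekly mice and 2.82 ± 0.293 TPM in vehicle mice, and Nlrc5 1.02 ± 0.130 and 0.993 ± 0.136 TPM in weekly and vehicle mice.

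Ciita was under the filter in muscle. It had 0.588, 0.371 and 0.446 TPM in daily mice, 0.261, 0.170 and 0.199 TPM in weekly mice, and 0.371, 0.145 and 0.373 TPM in vehicle mice. The daily libraries lay above the weekly ones, and the vehicle libraries lay across the weekly range and just past the lowest daily value. At these levels each value rests on few reads, and no test was made.

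**Figure D3:**
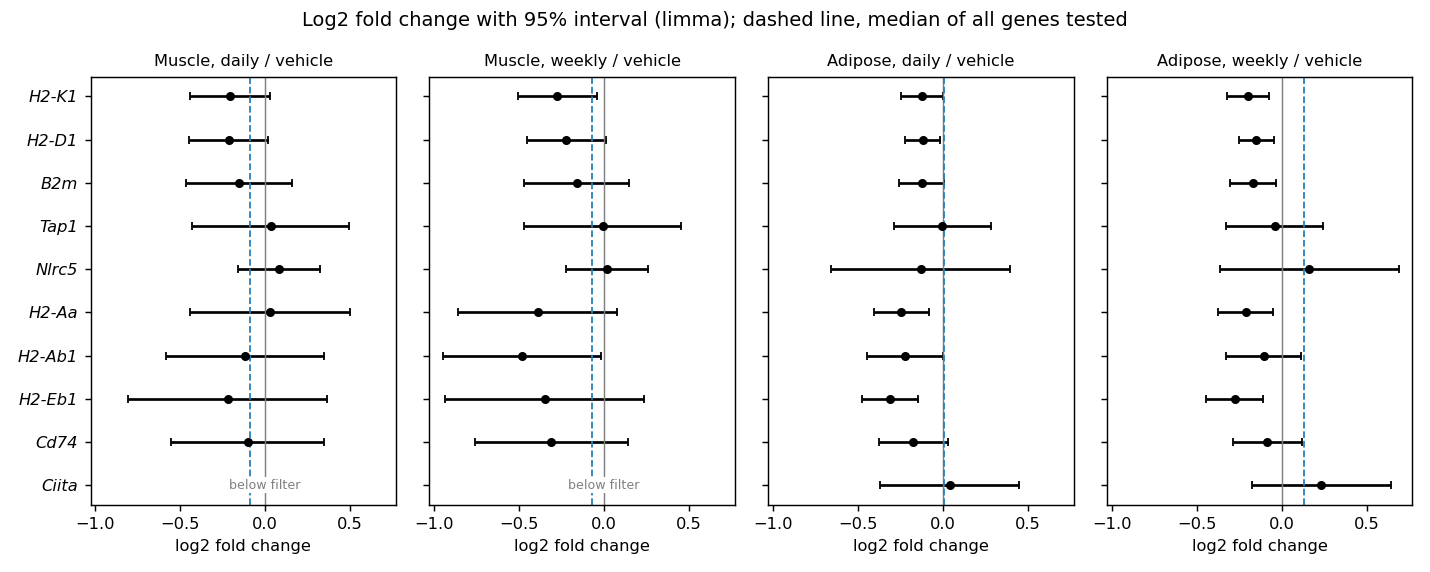
Log2 fold change of log2(TPM + 1) with its 95% interval for daily or weekly prednisone over vehicle in muscle and adipose tissue, by limma on 9 libraries a tissue; the dashed line is the median of all genes tested. The adipose intervals of H2-D1, H2-Aa and H2-Eb1 lie below 0 under both regimens, muscle intervals are wider except that of Nlrc5, and Ciita was below the filter in muscle.

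The 2 regimens were also set against each other. In muscle the log2 difference of daily minus weekly ran from 0.0069 to 0.42 over the 9 genes, with 0 called by limma, against 1.77% of all genes tested, and with adjusted p of 0.337 to 0.983. Of the 9 genes, 0 had a log2 difference below 0, against 58.2% of all genes. In adipose tissue the difference ran from -0.29 to 0.08 over the 10 genes, with 0 called, against 0.311% of all genes, and with adjusted p of 0.489 to 0.890. The 95% intervals reached from -0.46 to 0.89 in muscle and from -0.82 to 0.33 in adipose tissue.

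Whether a regimen moved the genes by a different amount in muscle than in adipose tissue was tested on the within-mouse differences between the tissues. For daily prednisone 0 of the 9 genes were called by limma, against 0.0511% of all genes, with differences of -0.10 to 0.27 and adjusted p of 0.665 to 0.963. For weekly prednisone 0 of 9 were called, against 2.78% of all genes, with differences of -0.37 to 0.04 and adjusted p of 0.308 to 0.979. None of the 9 had an unadjusted p under 0.05 in either test, against 1618 of the 11737 genes tested for daily and 3294 for weekly.

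The proportions of the chains within a library varied over narrow ranges for some pairs and wider ones for others. H2-D1 over H2-K1 was 2.05 to 2.32 in the 9 muscle libraries and 2.08 to 2.30 in the 9 adipose libraries. B2m over the sum of H2-K1 and H2-D1 was 1.43 to 1.78 in muscle and 1.72 to 1.84 in adipose tissue. H2-Aa over H2-Ab1, the partners of I-A, was 1.16 to 1.41 in muscle and 1.26 to 1.63 in adipose tissue. H2-Aa over H2-Eb1 was 1.23 to 1.82 in muscle, the widest of these chain ratios, and 1.30 to 1.44 in adipose tissue. In muscle it averaged 1.62 ± 0.180 in daily mice, 1.32 ± 0.129 in weekly mice and 1.35 ± 0.065 in vehicle mice. Cd74 over the sum of the 3 class II chains was 0.735 to 0.857 in muscle and 0.661 to 0.758 in adipose tissue. In adipose tissue the Cd74 ratio was 0.710 ± 0.026 in daily mice, 0.726 ± 0.033 in weekly mice and 0.669 ± 0.0082 in vehicle mice, and the daily and weekly libraries all lay above the vehicle libraries.

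The genes also differed in how their level was split among transcripts. Cd74 has a short and a long invariant chain: the transcript coding for 215 amino acids took 76.7% of muscle and 73.6% of adipose Cd74 TPM, and the main transcript coding for 279 took 22.2% and 25.2% of them. Full-length H2-K1, coding for 369 amino acids, took 75.6% of its TPM in muscle and 82.6% in adipose tissue. H2-Aa was split between transcripts coding for 256 and 173 amino acids, which took 64.5% and 35.3% of its muscle TPM and 71.6% and 27.9% of its adipose TPM. In adipose tissue an Nlrc5 transcript that keeps an intron and codes for no protein took 32.5% of its TPM, and 17.1% to 58.8% in single libraries. Nlrc5 transcripts coding for 1915 amino acids took 13.9% and 20.6% there. The summed Nlrc5 level is therefore not that of coding RNA alone. Such shares are the authors' estimates per transcript, averaged over the 9 libraries of a tissue unless given for single libraries.

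The genes most like H2-Aa and H2-K1 across the 9 libraries of a tissue were ranked by Pearson r of log2(TPM + 1), as a description, over libraries that share regimen and fixed-total scaling, with the 10 genes themselves left out of the ranking. In muscle, outside the 10 genes, H2-Aa was most like H2-Ea-ps (0.972), C1qtnf5 (0.956), Ptbp3 (0.952), Coro1a (0.950) and Gm13889 (0.950). H2-Ea-ps is the alpha chain gene of I-E, which C57BL/6 mice do not express and mice of haplotype d do. It had 60.0, 31.4 and 40.6 TPM in muscle of daily mice, 30.6, 23.4 and 31.2 TPM in weekly mice, and 32.7, 46.2 and 40.7 TPM in vehicle mice. In adipose tissue it averaged 492 ± 1.56 TPM in daily mice, 532 ± 86.7 TPM in weekly mice and 570 ± 41.3 TPM in vehicle mice, near the level of its partner H2-Eb1. Among the 10 genes, H2-Aa in muscle correlated at 0.968 with H2-Ab1 and 0.949 with Cd74, and in adipose tissue at 0.958 with H2-Eb1 and 0.733 with H2-Ab1.

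H2-K1 was most like Dhx9 (0.974), Rps10 (0.969), Rad51d (0.967), Rpl11 (0.964) and Igfals (0.961) in muscle. Among genes outside the 10, in adipose tissue it was most like Atp5g3 (0.987), Dapk3 (0.979), Ddit3 (0.975), Lage3 (0.971) and Mdh2 (0.968), and H2-Aa like Gm12481 (0.975), Churc1 (0.966), Igkv6-20 (0.964), H3f3a (0.951) and Rpl18 (0.949). H2-K1 correlated with H2-D1 at 0.944 in muscle and 0.905 in adipose tissue. With its own transactivator Nlrc5 it stood at 0.238 in muscle and -0.55 in adipose tissue, where the high Nlrc5 of weekly replicate 1 lies at the lowest H2-K1. In muscle Nlrc5 lay at only 0.890 to 1.18 TPM, near the filter. These r values therefore cannot show whether the levels of H2-K1 and Nlrc5 run together.

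Outside the 10 genes, daily prednisone in muscle moved single genes of the pathway. Ctss, cathepsin S, the protease that trims the invariant chain, had 66.1, 37.2 and 46.7 TPM in daily mice, against 11.4, 16.3 and 14.1 TPM in vehicle mice. Its log2 fold change was 1.75 (SE 0.19, adjusted p = 0.00202), and 1.51 or more in each of 19 alternatives, while it was not called in the 1 of these that left out the third library of every group. Of the 11 class II chain and loading genes tested it was the 1 that rose, and 0 fell, against 1.91% of all genes called higher and 11.8% called lower, so the protease moved while the chains did not pass the test. Of 12 macrophage markers 2 rose in the same libraries and 0 fell. These were Lyz2 at 266 ± 45.3 TPM in daily mice and 118 ± 22.6 TPM in vehicle mice (adjusted p = 0.00291) and Cd68 at 18.4 ± 5.96 and 7.99 ± 2.20 TPM in daily and vehicle mice (adjusted p = 0.0212). The 12 macrophage markers summed to 364 to 548 TPM in daily mice and 237 to 346 TPM in vehicle mice, and the part of these cells in the Ctss level was not tested.

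Class I loading and NF-Y genes moved in muscle as well. Pdia3, the ERp57 protein of the class I loading complex, had 43.0, 33.5 and 37.3 TPM in daily mice, against 26.0, 28.5 and 29.1 TPM in vehicle mice (log2 fold change 0.43, adjusted p = 0.0135). Calr, the chaperone calreticulin, rose by 0.21 on the log2 scale (adjusted p = 0.0307), and these were the 2 of 13 peptide supply and loading genes that rose, with 0 that fell. H2-T24, a class I-like gene, had 3.41, 3.83 and 3.34 TPM in daily mice, against 2.38, 2.60 and 2.32 TPM in vehicle mice (0.40, adjusted p = 0.0229), the 1 that rose of 16 class I genes. Nfyb, a subunit of NF-Y, had 20.4, 21.4 and 20.1 TPM in daily mice, against 25.9, 31.6 and 31.1 TPM in vehicle mice (-0.49, adjusted p = 0.00758). Nfyc, another subunit, fell by 0.26 on the log2 scale (adjusted p = 0.0362), so that 2 of 8 genes of MHC transcription control fell and 0 rose. Of 10 interferon gamma signalling genes and 4 costimulation genes, 0 were called. Over all genes tested in this comparison, 1.91% were called higher and 11.8% lower. Nfyb kept its call in 18 of 19 alternatives and Pdia3 in 17 of 19, against 13 of 18 for H2-T24, 10 of 19 for Calr and 9 of 19 for Nfyc. Without the third library of every group none of these 5 genes or Ctss was called, at adjusted p of 0.0983 to 0.309.

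List medians for daily prednisone in muscle were -0.19 for class I chains, -0.04 for peptide loading, 0.08 for class II, -0.16 for transcription control and -0.08 for interferon gamma signalling, against -0.09 over all genes. With TMM-type scaling, where all genes had a median of -0.0034, loading stood at 0.04 and interferon gamma signalling at 0.01, both with the sign turned. Nfyc was not called with that scaling (adjusted p = 0.218), and 54.9% of the genes called were lower, against 86.0% as deposited. In muscle of weekly mice limma called 0 genes of the 6 lists, against 0.049% of all genes. Of 16 class I, 13 loading and 11 class II genes, 4, 2 and 1 had an unadjusted p under 0.05, against 15.4% of all genes. The class II list had a median of -0.33 there, with 10 of 11 genes below 0, against 70.5% of all genes. Between the regimens in muscle, Ctss was higher in daily than in weekly mice by 2.08 on the log2 scale (adjusted p = 0.00102).

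In adipose tissue the calls of these lists came with weekly prednisone. Pdia3 had 203, 187 and 198 TPM in weekly mice, against 154, 153 and 149 TPM in vehicle mice (log2 fold change 0.36, adjusted p = 0.0188). Canx, the chaperone calnexin, rose by 0.43 (adjusted p = 0.0353) and Calr by 0.31 (adjusted p = 0.0396) on the log2 scale. Psme1, a subunit of the interferon-induced PA28 proteasome activator, averaged 147 ± 8.77 TPM in weekly mice and 176 ± 4.97 TPM in vehicle mice (-0.26, adjusted p = 0.0443), so that 3 of 13 loading genes rose and 1 fell, against 5.72% of all genes called higher and 1.72% called lower. The genes that rose are chaperones of all glycoproteins as well as of class I. Nfya, the DNA-contacting subunit of NF-Y, rose by 0.45 (adjusted p = 0.0409), the 1 of 9 transcription control genes.

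Of 7 tested genes of T cell costimulation and class II turnover, 2 rose with weekly prednisone in adipose tissue, against 5.72% of all genes. Cd80, a ligand of CD28, had 2.95, 3.04 and 2.98 TPM in weekly mice, against 1.26, 0.739 and 1.51 TPM in vehicle mice (0.89, adjusted p = 0.0209). Cd83, which keeps class II on the surface by restraining its ubiquitination, averaged 28.2 ± 1.47 TPM in weekly mice and 21.6 ± 2.16 TPM in vehicle mice, without overlap (0.37, adjusted p = 0.0468). Of 16 class I, 12 class II and 12 interferon gamma genes, 0 were called, against 7.43% of all genes. Of these lists 7, 3 and 5 genes had an unadjusted p under 0.05, against 30.8% of all genes. With daily prednisone in adipose tissue limma called 0 genes of the 6 lists, against 0.00707% of all genes. An unadjusted p under 0.05 was found for 3 of 16 class I, 5 of 13 loading and 3 of 12 class II genes, against 9.22% of all genes. List medians there were -0.11 for class I chains and -0.19 for class II chains and loading, against 0.0072 over all genes.

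The weekly adipose list calls depended on scaling and on single libraries. Pdia3 kept its call in 17 of 21 alternatives and Cd80 in 16 of 20, against 9 of 21 for Calr and for Nfya, 8 for Canx, 7 for Psme1 and 6 for Cd83. Without the third library of every group none of these 7 genes was called, at adjusted p of 0.325 to 0.344. With TMM-type scaling Cd80 and Psme1 kept their calls, while Pdia3 (0.22, adjusted p = 0.126), Canx (0.28, adjusted p = 0.0556), Calr (0.17, adjusted p = 0.230), Nfya (0.31, adjusted p = 0.0677) and Cd83 (0.23, adjusted p = 0.198) lost them. The class I list then had 3 genes called lower, the loading list 3 and the class II list 1, against 4.65% of all genes. The median of interferon gamma signalling turned to -0.08, against 0.06 as deposited. Over all genes the scaling moved the share of called genes that were lower to 59.0%, against 23.1% as deposited. Without the 3 adipose libraries rich in Ckm, Cd80, Cd83, Nfya and Psme1 were not called, at adjusted p of 0.0590 to 0.115, and the class II list had a median of 0.15, against -0.03 with them.

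**Figure D4:**
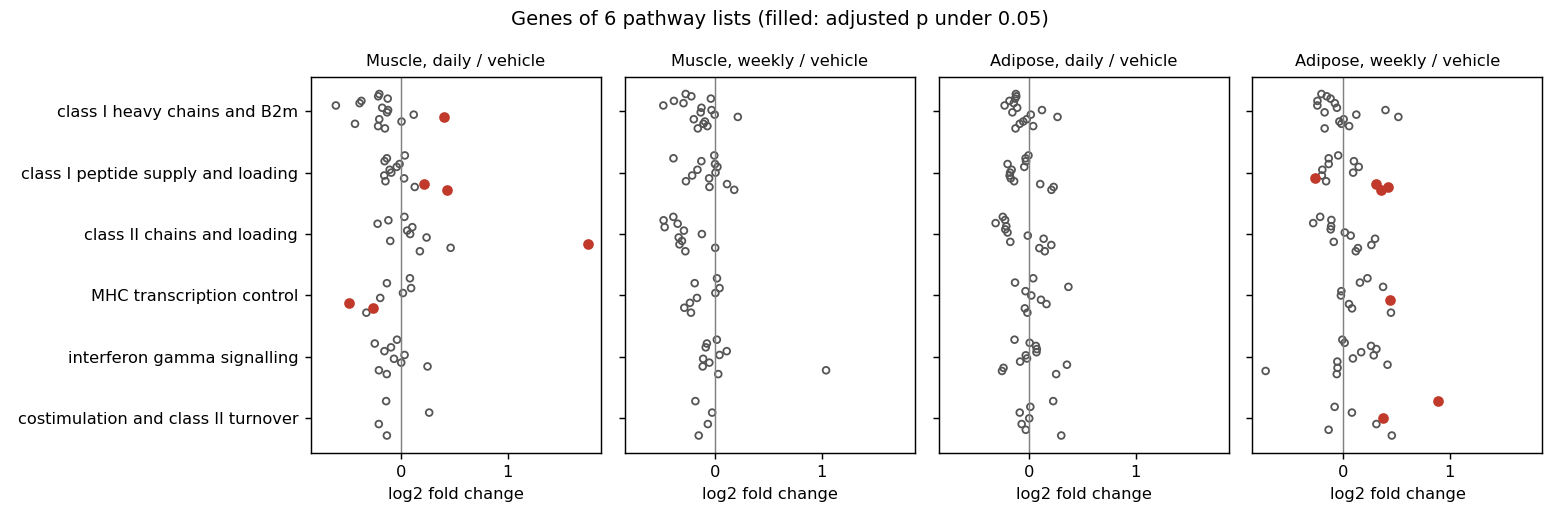
Log2 fold change of each tested gene of 6 pathway lists for daily or weekly prednisone over vehicle in muscle and adipose tissue; 1 circle is 1 gene, and filled circles have a limma adjusted p under 0.05. Filled circles are found in muscle with daily prednisone, where Ctss stands far right at 1.75, and in adipose tissue with weekly prednisone.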

How the data were processed

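RNA was measured in 18 libraries. Per the labels' protocols, total RNA came from Trizol followed by RNeasy columns, and stranded mRNA libraries were made from it. The values are TPM that the authors deposited for 105129 transcripts with a gene symbol each. Per the submitters' processing notes Trimmomatic, HISAT2, kallisto and mm10 were used; their versions and roles are not given in the sources used here. TPM keeps no read counts, so depth is unknown, no counting interval is given, and error is the spread between mice.

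TPM were summed per symbol. Genes that reached 1 TPM in 3 or more libraries of the tissue (12246 in muscle, 14150 in adipose tissue) were fitted as log2(TPM + 1) with limma 3.58.1 in R 4.3.3 (lmFit, eBayes with trend) on 9 libraries a tissue, with 6 residual degrees of freedom, two-sided, and Benjamini-Hochberg adjustment over all genes of a comparison, called under 0.05. Fold changes are on this scale and understate changes of low genes. Tissues were compared on muscle minus adipose differences within each mouse. The scripts were tested on simulated data. Figures used matplotlib 3.10.9 in Python 3.11.15. Positions are those of GENCODE M21 (GRCm38), which holds 94.7% of the transcript identifiers, and transcripts were matched without their version.

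The 10 genes and all lists were chosen with earlier results of these data known. Genes named are the 10, up to 3 called genes of each pathway list with the smallest p per comparison, and the 5 most alike to H2-Aa and to H2-K1; Psme1, Cd68 and the levels of H2-Ea-ps were added after their values were seen. Replicate numbers were not treated as pairs between regimens, since the labels name no shared litter or batch for them. Residuals of like-numbered mice had a median correlation of -0.03 in muscle (-0.12 to 0.11) and 0.03 in adipose tissue (-0.06 to 0.19). With 3 mice a group this cannot exclude pairing. Alternatives were TMM-type scaling in own code, pseudocounts of 0.1 and 5, no filter or 5 TPM, array weights, only the 2 groups compared, a replicate block, the main transcript only, a Ckm covariate, and libraries left out; leaving out the adipose libraries above 100 TPM of Ckm was chosen after seeing the data. The design text of the series names 2 daily adipose samples, and the labels and the table hold 3.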

Additional observations from a re-analysis of the deposited data

How the results depend on the processing

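In each fit named here limma was used with the adjusted p as before. With array weights, which called more genes in all, 2 of the 9 muscle genes were called lower for daily prednisone (against 35% of all genes), 2 higher in daily than weekly muscle (10.3%), and in adipose tissue 7 of the 10 lower for daily prednisone (8.99%) and 6 lower for weekly (14.4%). In adipose tissue with weekly prednisone TMM-type scaling gave 2 lower (against 4.65% of all genes), a filter of 5 TPM 1 lower (2.62%), the Ckm covariate 5 (3 lower against 4.75%, Nlrc5 and Ciita higher against 25.6%), and leaving out the libraries rich in Ckm 2 (1 lower against 3.09%, 1 higher against 12%). Leaving out each library in turn gave 0 to 3 called genes for daily prednisone in muscle (3 lower without daily replicate 1, against 12% of all genes) and 0 to 1 for weekly prednisone in adipose tissue, and 0 in the other regimen comparisons. The tissue difference stayed at 9 of 9 in each alternative run for it. With the replicate block 0 genes of the 10 were called in each regimen comparison and 9 of 9 between tissues; over all genes 1386 were called in muscle and 0 in adipose tissue for daily prednisone, and 0 and 806 for weekly.

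Direction turned for the genes below in some alternatives, and no value with a turned sign was called. The ranges also hold values that kept their sign, some of them called as given above. In muscle with daily prednisone, array weights gave Tap1 -0.11 and H2-Aa -0.064, and with single libraries left out the log2 fold change ran from -0.21 to 0.24 for H2-Aa, -0.16 to 0.15 for Tap1, -0.33 to 0.0076 for B2m, -0.35 to 0.11 for H2-Ab1, -0.47 to 0.066 for H2-Eb1 and -0.34 to 0.11 for Cd74. In muscle with weekly prednisone Tap1 was 0.044 with TMM-type scaling, 0.0035 with a pseudocount of 5, 0.049 without the third libraries and -0.21 to 0.14 with single libraries left out, and Nlrc5 was -0.011 without the third libraries and -0.031 to 0.074 with single libraries left out. In adipose tissue with daily prednisone Tap1 was 0.093 with array weights, 0.095 with the main transcript, 0.054 with the Ckm covariate, 0.062 without libraries rich in Ckm and -0.079 to 0.069 with single libraries left out. Nlrc5 was 0.0078 with array weights and 0.035 with the main transcript, and Ciita was -0.062 without the third libraries and -0.078 to 0.26 with single libraries left out. In adipose tissue with weekly prednisone Nlrc5 was -0.32 with the main transcript, and with single libraries left out it ran from -0.16 to 0.40, Tap1 from -0.17 to 0.045 and Cd74 from -0.18 to 0.0012. Tap1 was 0.13 with the Ckm covariate, and without libraries rich in Ckm Tap1 was 0.22, H2-Ab1 0.13 and Cd74 0.098. The cause was not tested for any of these. Over all genes, TMM-type scaling left 34.8% of calls lower in daily than in weekly muscle, against 51.6% as deposited, 78.6% against 95.5% in adipose tissue, and 11.1% against 33.3% and 0% against 97.9% for the tissue difference of daily and of weekly prednisone. The depth of the libraries is unknown, and 3 libraries a group limit what limma can call.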
